A study of Mus musculus with 3 samples.

Results

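Fibroblastic progenitors of the healing mouse femur were compared between day 10 and day 14 after fracture. The cells were chosen by *Aspn*, which encodes asporin, a small matrix proteoglycan of fibrous connective tissue. A cell counted as a member when it had 500 to 5000 genes, at most 10% mitochondrial and 5% hemoglobin UMIs, no UMI of *Ptprc*, at least 10 *Aspn* UMIs per 10000 UMIs, and more *Aspn* than *Col9a1* UMIs. A UMI, or unique molecular identifier, is the tag of a single captured mRNA molecule. By this rule 5790 cells of the 30888 deposited in the series were members on these 2 days, 1821 at day 10 and 3969 at day 14. A further 21 cells of day 7 met the rule and were not compared.

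Each day gave 1 droplet scRNA-Seq library of untreated C57BL/6 callus after femoral fracture. Muscle and bone marrow were removed, the callus was digested with type I collagenase, and live cells without CD45, CD31, or TER119 were sorted. The age of the animals of these libraries and the number pooled are not given in the sources used here. In both libraries the Y-linked *Ddx3y* was present, at 62.5 counts per 1000000 UMIs (CPM) on day 10 and 61.1 CPM on day 14, and *Xist*, which is transcribed from an inactive X chromosome, was at 0.0725 and 0.162 CPM. With 1 library a day, a difference between the days cannot be told apart from a difference between the libraries, their handling, or the animals. No p-value was therefore computed, and the 95% intervals given here cover counting error only.

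After a fracture, cells of the periosteum divide and build a fibrous and cartilaginous bridge that is later replaced by bone. The fibroblastic cells of this callus make collagen-rich matrix and the growth factors and chemokines that act on neighboring cells, and some of them are progenitors of cartilage and bone cells. Inflammation in the callus subsides as soft callus gives way to mineralized tissue.

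The members were 27.6% (95% CI, 26.6% to 28.7%) of the 6587 *Ptprc*-negative cells within the limits at day 10 and 41.0% (95% CI, 40.0% to 42.0%) of 9680 at day 14. They held 27582873 and 55429311 UMIs, with a median per cell of 15104 and 14026 UMIs, 3741 and 3575 genes, and 3.00% and 2.76% mitochondrial UMIs. The median *Aspn* level, which the rule used, was 34.8 and 39.3 UMIs per 10000. Just inside the threshold, at 10 to 12 per 10000, lay 97 and 180 cells, and just outside it, at 8 to 10, lay 100 and 170. The libraries shared 35 deposited barcodes, 5 of them between members, and without members whose barcode recurred in any other library 11 genes were at least 2-fold higher at day 14 and 42 at day 10, against 12 and 42 with them.

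The label was checked against genes that the rule did not use. *Postn*, which encodes the matrix protein periostin, was detected in 97.9% of members thinned to 5000 UMIs at day 10 and in 96.6% at day 14, against 66.0% and 58.6% of the *Col9a1*-rich cells, the cartilage-type cells of the same libraries. Those cells had at least 10 *Col9a1* UMIs per 10000 and more *Col9a1* than *Aspn* UMIs, and numbered 3427 and 2477, with medians of 19459 and 20870 UMIs before thinning. The proteoglycan gene *Lum* was found in 89.3% and 93.1% of members and in 90.3% and 91.8% of *Col9a1*-rich cells, so it did not separate them. The receptor gene *Pdgfra* was found in 24.5% and 25.4% of members and in 7.17% and 5.65% of *Col9a1*-rich cells. *Ptn* was found in 78.6% and 79.4% of members, against 10.3% and 9.20%, and *Thbs2* in 95.7% and 94.6%, against 46.2% and 42.8%. The members also carried cartilage RNA, with *Acan* in 80.95% and 87.55% of them. The other *Ptprc*-negative cells were not part of this check.

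Between the days, most genes kept their level. Of the 5725 genes with at least 20 CPM in members on either day, 96.7% lay within 1.5-fold, and the median log2 ratio of day 14 over day 10 was -0.02. At least 2-fold higher at day 14 were 12 genes (0.21%), and at least 2-fold higher at day 10 were 42 genes (0.734%). At a ratio of 1.5-fold the numbers were 59 (1.03%) and 130 (2.27%). Day 10 stood out for interferon-stimulated genes, chemokines, immediate early genes, and cell cycle genes. Day 14 stood out for neutrophil granule RNA, *Col10a1* and *Spp1* of mineralizing cartilage and bone, the BMP antagonist *Nbl1*, and, at 1.5-fold, *Igfbp4*, *Igfbp5*, and *Igfbp6*. Most other cartilage and bone genes went the opposite way. Of the counted genes, 14 of 17 chondrocyte genes and 11 of 12 osteoblast genes were lower at day 14.

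**Figure D1:**
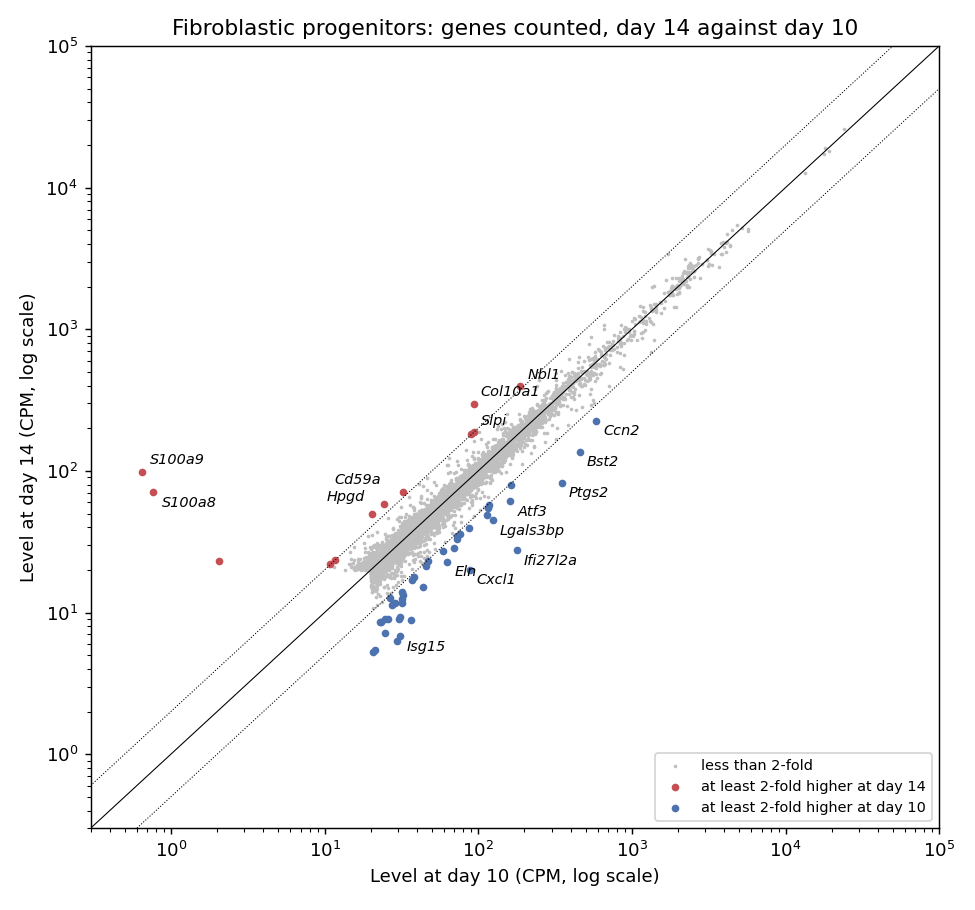
Level of each of the 5725 genes in fibroblastic progenitors at day 10 (x axis, CPM, log scale) and day 14 (y axis, CPM, log scale), 1 point a gene. The solid line marks equal levels and the dotted lines 2-fold; 12 red genes are at least 2-fold higher at day 14 and 42 blue genes at day 10, and the other points lie close to the solid line.

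Interferon-stimulated genes were higher at day 10. Interferons, secreted by cells that sense viruses or damage, switch these genes on, and their products restrict viruses and shape inflammation. *Ifi27l2a*, which interferon induces, stood at 178 CPM on day 10 and 27.4 CPM on day 14, 6.50-fold higher at day 10 (log2 ratio, -2.70; 95% CI, -2.79 to -2.62). *Bst2*, which encodes the virus-tethering protein tetherin, had 459 and 137 CPM (log2 ratio, -1.74; 95% CI, -1.78 to -1.70). *Isg15*, a ubiquitin-like modifier, had 30.7 and 6.80 CPM (log2 ratio, -2.18). The share of thinned members with a UMI of *Bst2* was 73.8% at day 10 and 34.5% at day 14, and that of *Ifi27l2a* was 27.2% and 6.49%. In the *Col9a1*-rich cells these shares were 31.9% and 11.0% for *Bst2* and 2.57% and 0.46% for *Ifi27l2a*.

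Of 21 interferon-stimulated genes listed, 12 were counted, and 6 of them were at least 2-fold higher at day 10 and none at day 14, where 0.734% and 0.21% of all counted genes were. Their median log2 ratio was -1.24, against -0.02 over all counted genes. The 6 were *Ifi27l2a*, *Isg15*, *Ifit1*, *Bst2*, *Rtp4*, and *Xaf1*. *Ifitm3*, a membrane protein that blocks virus entry, had 1328 and 693 CPM. Outside this list, *Irf9*, a transcription factor gene of the interferon response, had 32.1 and 12.4 CPM, and *Lgals3bp*, a secreted glycoprotein gene that interferon also induces, had 125 and 45.0 CPM. *Ifitm2*, a close relative of *Ifitm3*, went the other way at 888 and 1009 CPM (log2 ratio, 0.18). Whether the reads of these related genes were told apart was not tested.

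The same difference was present in cells that were not members. In the *Col9a1*-rich cells the log2 ratio was -1.83 for *Bst2*, -2.28 for *Ifi27l2a*, and -1.49 for *Lgals3bp*, and the median over the counted interferon-stimulated genes was -0.90. In the other *Ptprc*-negative cells, 1339 at day 10 and 3234 at day 14, that median was -1.37. *Ifit1* was an exception, with 2.57 CPM on day 10 and 3.59 CPM on day 14 in the *Col9a1*-rich cells. What moved these genes in all 3 sets of cells was not tested.

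**Figure D2:**
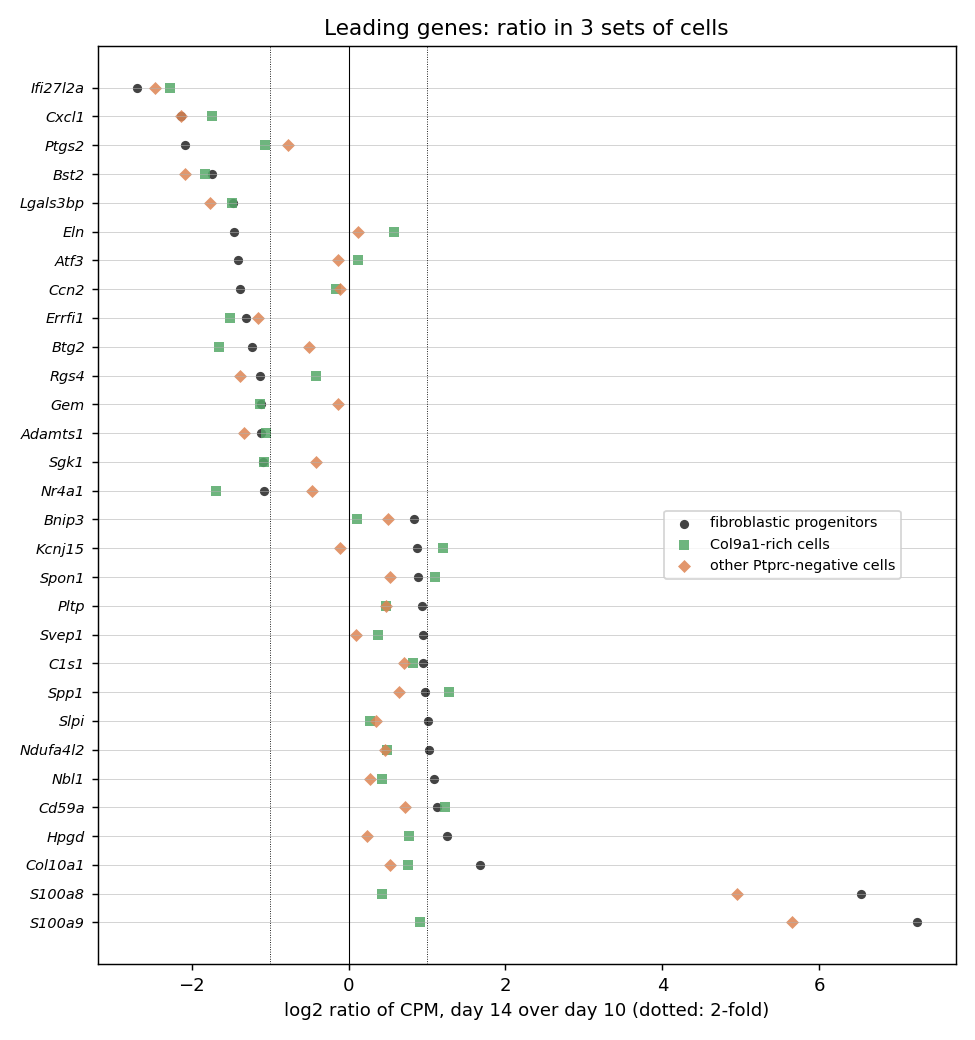
Log2 ratio of CPM, day 14 over day 10 (x axis), for the 15 genes with the largest ratio in each direction among those of at least 50 CPM (y axis), in fibroblastic progenitors (black), *Col9a1*-rich cells (green), and other *Ptprc*-negative cells (orange). *Bst2*, *Cxcl1*, and *Lgals3bp* lie beyond 2-fold on the day 10 side in all 3 sets, whereas *Ccn2*, *Atf3*, and *Eln* do so in the progenitors alone among these sets.

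Promoters of 3 of these genes are shown because they hold letters of the element through which interferon is known to act. Each is the 150 bases before the RefSeq transcription start (GRCm38.p6), written 5′ to 3′ on the strand of the gene, with GAAA, any 2 bases, and GAAA again, or the reverse complement of this, in capitals. *Isg15* lies at chr4:156200819-156200968 on the minus strand and has 3 overlapping matches. *Ifit1* lies at chr19:34640739-34640888 on the plus strand with 2 matches, and *Bst2* at chr8:71537473-71537622 on the minus strand with 2 overlapping matches.
Isg15: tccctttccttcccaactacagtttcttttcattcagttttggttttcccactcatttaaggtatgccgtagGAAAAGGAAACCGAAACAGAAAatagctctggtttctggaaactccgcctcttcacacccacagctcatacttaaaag
Ifit1: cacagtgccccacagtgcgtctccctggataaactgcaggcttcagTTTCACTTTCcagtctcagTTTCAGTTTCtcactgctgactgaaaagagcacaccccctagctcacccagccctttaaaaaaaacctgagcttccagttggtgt
Bst2: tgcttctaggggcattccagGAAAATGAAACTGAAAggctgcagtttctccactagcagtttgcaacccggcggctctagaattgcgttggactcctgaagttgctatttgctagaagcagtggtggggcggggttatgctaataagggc

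On both strands of windows from 250 bases before to 50 bases after each start, this motif was found in 3.44% of the 32851 windows of the RefSeq table. By gene, 3.73% of the 4579 counted genes with a window held it. Of the 12 counted interferon-stimulated genes, 8 had a window and 5 held the motif: *Bst2*, *Ifit1*, *Ifitm2*, *Ifitm3*, and *Isg15*. Of the 42 genes at least 2-fold higher at day 10, 27 had a window and 5 held it, with *Cxcl14* and *Sgk1* besides *Bst2*, *Ifit1*, and *Isg15*. Among the 12 genes higher at day 14, 11 had a window, and *Cd59a* was the 1 that held it. *Ifitm2* carried the motif and was not lower at day 14, and a match describes letters in a window, not a site in use.

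Chemokine genes were the other group with large differences. Chemokines are secreted proteins that draw leukocytes to a wound. *Cxcl1*, a neutrophil attractant, had 87.8 CPM on day 10 and 20.04 CPM on day 14 (log2 ratio, -2.13; 95% CI, -2.23 to -2.03). *Ccl7* and *Ccl2*, attractants of monocytes, had 36.6 and 8.82 CPM and 24.8 and 9.07 CPM, respectively. *Cxcl2*, close kin of *Cxcl1*, had 20.6 and 5.27 CPM, and *Cxcl14* had 25.7 and 9.06 CPM. Of 24 chemokines and cytokines listed, 8 were counted. At least 2-fold higher were 5 of them at day 10 and none at day 14, where 0.734% and 0.21% of all counted genes were. The median of the 8 was -1.48. *Cxcl12*, the factor that retains blood-forming cells in marrow, had 94.2 and 122 CPM, and *Mif* had 796 and 754 CPM.

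Few members carried these chemokines. *Cxcl1* was found in 15.7% of thinned members at day 10 and 5.96% at day 14, close to 15.2% and 7.15% of *Col9a1*-rich cells, and *Cxcl2* in 3.59% and 0.852%, against 4.60% and 2.09%. For these 2 genes the shares in members were not above those of the *Col9a1*-rich cells except for *Cxcl1* at day 10, so a signal from free RNA in the droplets cannot be told apart from expression by the members. *Ccl7* was above that level, at 8.44% and 2.45% of members and 0.878% and 0.502% of *Col9a1*-rich cells.

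*Ptgs2* encodes cyclooxygenase-2, which makes the prostaglandins that act early in fracture repair. Its level was 350 CPM on day 10 and 82.2 CPM on day 14, 4.26-fold higher at day 10 (95% CI of the log2 ratio, -2.14 to -2.04), and it was found in 47.0% and 20.2% of thinned members. The *Col9a1*-rich cells had 637 and 304 CPM. *Hpgd*, which encodes the enzyme that inactivates prostaglandins, was among the genes higher at day 14, at 24.4 and 58.2 CPM (log2 ratio, 1.25; 95% CI, 1.13 to 1.38). Its level in the other *Ptprc*-negative cells was 534 and 628 CPM, far above that of the members on both days. *Nfkbia*, the inhibitor and target of NF-κB, had 117 and 57.5 CPM in members.

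Letters of the NF-κB type, GGGA followed after 1 free base by TTTCC on either strand, were searched in the same windows and found in 0.411% of them. They were present in *Cxcl1*, *Cxcl2*, and *Csf1* among the 6 counted chemokine and cytokine genes with a window, and in *Cxcl1*, *Cxcl2*, and *Nfkbia* among the 27 genes higher at day 10 with one. The 150 bases before the start of *Cxcl1* (chr5:90891095-90891244, plus strand), *Cxcl2* (chr5:90903749-90903898, plus strand), and *Nfkbia* (chr12:55492648-55492797, minus strand) are shown in the same way, with the match in capitals.
Cxcl1: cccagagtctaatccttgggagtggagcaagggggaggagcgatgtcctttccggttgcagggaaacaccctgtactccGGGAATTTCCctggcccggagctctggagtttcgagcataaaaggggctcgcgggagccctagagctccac
Cxcl2: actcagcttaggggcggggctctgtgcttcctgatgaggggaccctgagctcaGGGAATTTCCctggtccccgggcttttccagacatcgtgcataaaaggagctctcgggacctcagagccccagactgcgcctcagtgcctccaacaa
Nfkbia: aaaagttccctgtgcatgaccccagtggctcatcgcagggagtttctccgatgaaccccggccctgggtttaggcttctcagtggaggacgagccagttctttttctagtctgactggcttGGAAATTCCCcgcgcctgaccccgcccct

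Immediate early genes, which cells switch on within minutes of a stimulus without new protein synthesis, were lower at day 14 as a group. Of 27 immediate early and stress genes listed, 25 were counted. At least 2-fold higher at day 10 were 4 of them, *Atf3*, *Btg2*, *Myc*, and *Nr4a1*, where 0.734% of all counted genes were. At least 1.5-fold higher at day 10 were 14, where 2.27% of all counted genes were. None was 1.5-fold higher at day 14, and the median log2 ratio was -0.60. *Fos*, a subunit of the AP-1 transcription factor, had 1395 CPM on day 10 and 843 CPM on day 14 (log2 ratio, -0.73). *Atf3*, a stress-induced transcription factor, had 162 and 60.8 CPM (log2 ratio, -1.41; 95% CI, -1.48 to -1.35).

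The median member carried 42 UMIs of the whole list per 5000 at day 10 and 43 at day 14, whereas the 90th percentile was 141 and 97. These sums hold *Hspa1a* and *Hspa1b*, which were higher at day 14, beside *Fos*, which was lower. *Fos* was found in 79.98% of thinned members at day 10 and in 82.8% at day 14, so its share of cells did not follow its CPM. The heat shock genes in the list were split. *Hspa1a* had 1350 and 1991 CPM (log2 ratio, 0.56) and *Hspa1b*, nearly identical to it, 1130 and 1457 CPM, whereas *Hsp90aa1* had 875 and 524 CPM.

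The lower levels at day 14 were not limited to the members. In the *Col9a1*-rich cells the median log2 ratio of the list was -0.69, and in the other *Ptprc*-negative cells it was -0.34. Over all counted genes the medians in these 2 sets of cells were -0.02 and -0.11. *Atf3* differed little there, with 376 and 408 CPM in the *Col9a1*-rich cells and 357 and 325 CPM in the others. Whether the day, the animals, or the handling of the libraries set the levels of the list cannot be told apart.

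Some feedback inhibitors and targets of growth factor signals were also among the genes at least 2-fold higher at day 10. No list of such genes was counted. The 17 counted FGF, PDGF, and VEGF genes had a median log2 ratio of -0.10, and 1 of them was 2-fold higher at day 10. *Errfi1*, an inhibitor of the EGF receptor, had 69.9 and 28.4 CPM, and *Dusp6*, a phosphatase that shuts off ERK, had 37.0 and 17.1 CPM. *Rgs4* and *Rgs16*, which shorten G protein signals, had 72.9 and 33.2 CPM and 30.6 and 8.97 CPM, respectively. The kinase gene *Sgk1*, induced by glucocorticoids and serum, had 117 and 54.8 CPM. These 5 genes were lower at day 14 in both other sets of cells as well, by differing amounts. *Rgs16* was close to level in the *Col9a1*-rich cells at 24.2 and 23.4 CPM.

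*Ccn2*, which encodes connective tissue growth factor, a matricellular protein and target of TGF-β and YAP, had 586 CPM on day 10 and 225 CPM on day 14 (log2 ratio, -1.38; 95% CI, -1.42 to -1.35). It was found in 60.5% and 41.3% of thinned members. The *Col9a1*-rich cells had 744 and 666 CPM and the other cells 828 and 768 CPM, so the ratio was near 1 outside the members. *Ccn1*, of the same family, had a log2 ratio of -0.74 in members, and *Ccn3* and *Ccn5*, also of this family, had 31.4 and 55.7 CPM and 51.4 and 84.0 CPM, higher at day 14. The metalloproteinase gene *Adamts1* had 86.6 and 39.8 CPM.

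Of 37 BMP and TGF-β genes listed, 23 were counted, with a median log2 ratio of -0.01. The ligand gene *Bmp2*, which starts fracture repair, had 28.8 and 11.6 CPM, whereas it was at 93.7 and 124 CPM in the other *Ptprc*-negative cells. *Inhba*, which encodes the activin A subunit, had 432 and 270 CPM. The antagonists went opposite ways. *Grem1*, which encodes gremlin 1, had 22.8 and 8.57 CPM (log2 ratio, -1.41), and *Nbl1*, which encodes another secreted BMP antagonist, had 187 and 399 CPM (log2 ratio, 1.09; 95% CI, 1.05 to 1.14). *Nbl1* was found in 51.0% and 70.0% of thinned members, against 8.11% and 9.49% of *Col9a1*-rich cells, and its log2 ratio was 1.09, 0.93, and 1.08 in the 3 gates described further on.

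Among 35 Wnt genes, of which 14 were counted with a median of -0.02, *Sfrp4*, which encodes a secreted Wnt inhibitor, was 2-fold higher at day 10 at 31.8 and 13.9 CPM. *Wif1*, another such inhibitor, had a log2 ratio of 0.46 and *Sfrp2* one of 0.40. Of the FGF, PDGF, and VEGF genes 17 were counted, and *Dusp6* was the 1 that differed 2-fold. The Hedgehog and Notch genes had 6 counted members, with log2 ratios from -0.16 to 0.16.

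Cell cycle RNA was higher at day 10. Cycling members, with at least 2 UMIs of *Mki67* and *Top2a* together, were 144 of 1821 at day 10 (7.91%; 95% CI, 6.71% to 9.24%) and 112 of 3969 at day 14 (2.82%; 95% CI, 2.33% to 3.39%). *Mki67*, which encodes the proliferation antigen Ki67, had 24.8 and 7.20 CPM (log2 ratio, -1.78), and *Hmmr*, a mitotic spindle gene outside the list, had 23.1 and 8.61 CPM. Of 26 cell cycle genes listed, 16 were counted, with a median of -0.40. At day 10, 1 was 2-fold and 7 were 1.5-fold higher, where 0.734% and 2.27% of all counted genes were. None was so at day 14. In the *Col9a1*-rich cells the median of the same genes was -0.01. In the other *Ptprc*-negative cells it was -0.41, close to that of the members, where the median over all counted genes in those other cells was -0.11. *Cdkn2a*, the locus of the cell cycle inhibitors p16 and p19, had 72.8 and 117 CPM in members.

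**Figure D3:**
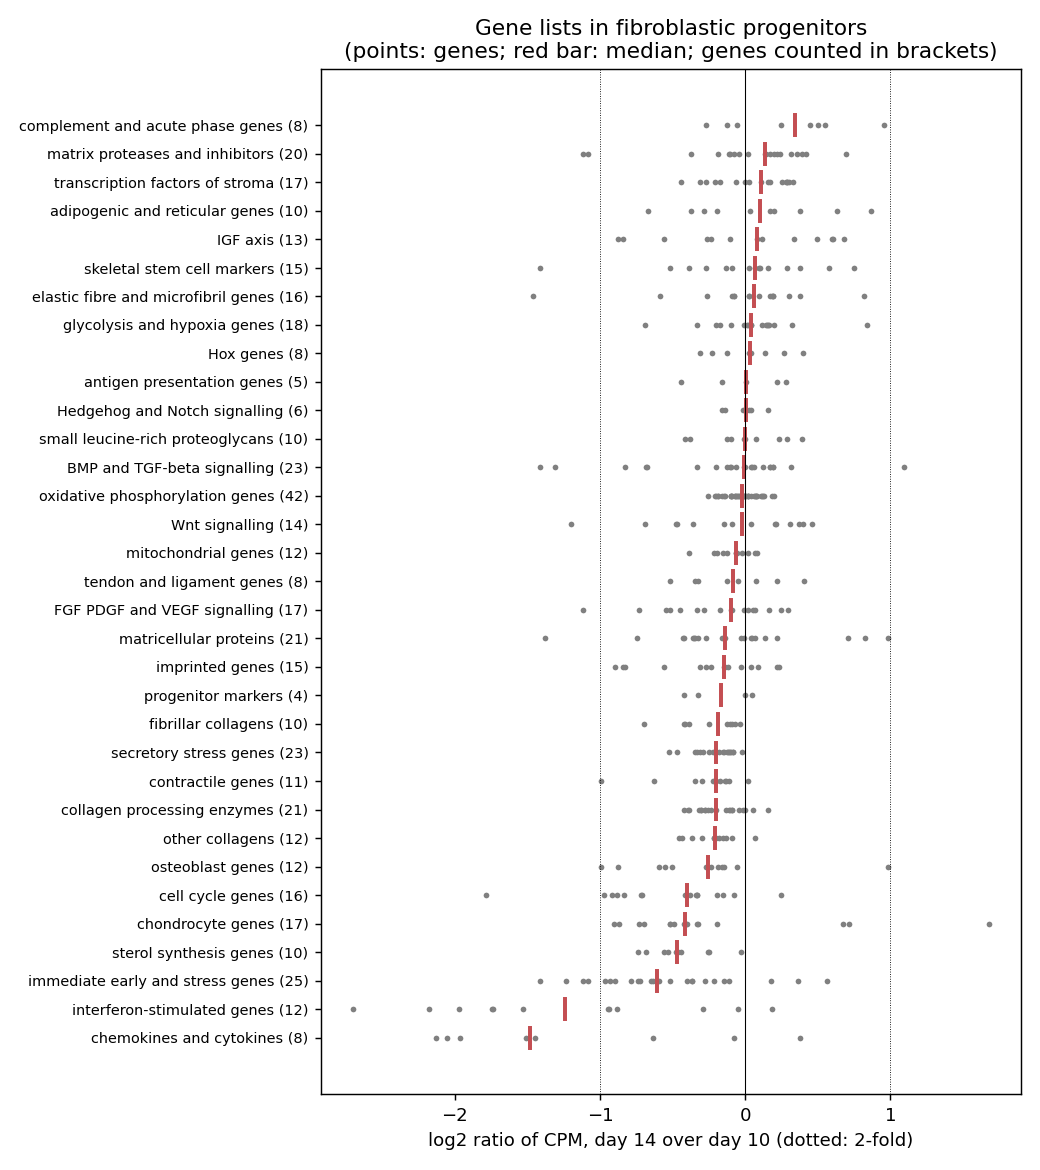
Log2 ratio of CPM, day 14 over day 10 (x axis), in fibroblastic progenitors for each gene list with at least 4 counted genes (y axis, ordered by median), with 1 grey point a gene and a red bar at the median. Chemokines and interferon-stimulated genes have medians beyond 2-fold on the day 10 side, and the oxidative phosphorylation genes lie close together around 0.

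Genes for making and folding secreted matrix were slightly lower at day 14, and none of them reached 1.5-fold in the lists of secretory stress genes and collagen processing enzymes. All 23 counted secretory stress genes had a log2 ratio below 0, with a median of -0.20. *Hspa5*, the main chaperone of the endoplasmic reticulum, had 1154 and 944 CPM. Of 21 collagen processing enzymes, 19 were below 0, with a median of -0.20. All 10 counted fibrillar collagens were below 0 with a median of -0.19, and their summed level was 58820 and 55050 CPM. *Col1a1* alone had 19130 and 18210 CPM. The 10 counted sterol synthesis genes were all below 0 as well, with a median of -0.47. In the *Col9a1*-rich cells the medians of the secretory, collagen processing, fibrillar collagen, and sterol lists were 0.07, -0.08, -0.24, and 0.13. In the other *Ptprc*-negative cells they were -0.27, -0.53, -0.59, and -0.32. The median over all counted genes was -0.11 in those cells, so part of each value is shared by all genes there.

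Several groups did not separate the days. The 42 oxidative phosphorylation genes had log2 ratios between -0.25 and 0.20, with a median of -0.02. The 10 counted small leucine-rich proteoglycans, among them *Dcn* at 2701 and 3170 CPM and *Ogn* at 1347 and 1346 CPM, had a median of 0.00 and none at 1.5-fold. *Postn* was lower at day 14 by less than 1.5-fold, at 3712 and 2767 CPM (log2 ratio, -0.42). Its log2 ratio was below 0 under every alternative tried, from -0.70 to -0.01. *Ptn*, which encodes the growth factor pleiotrophin, had 1372 and 1095 CPM, and *Thbs2*, which encodes a thrombospondin, 1341 and 1385 CPM. *Bmp1*, the protease that trims procollagen, had 211 and 192 CPM. Of 24 stem and progenitor markers of the skeleton, 15 were counted, with *Grem1* 2-fold higher at day 10 and the surface marker *Ly6c1* higher at day 14 at 22.0 and 37.0 CPM.

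IGF binding proteins carry insulin-like growth factors and set how much of them reaches the receptor. *Igfbp6* had 234 and 376 CPM, *Igfbp4* had 657 and 999 CPM, and *Igfbp5* had 523 and 791 CPM, and these 3 of the 13 counted genes of the IGF axis were at least 1.5-fold higher at day 14, where 1.03% of all counted genes were. *Igfbp4* was found in 83.1% and 90.8% of thinned members, against 36.2% and 30.4% of *Col9a1*-rich cells. *Igf1*, the ligand, had 851 and 1076 CPM (log2 ratio, 0.34; 95% CI, 0.32 to 0.36), and its receptor gene *Igf1r* had 43.7 and 40.6 CPM. *Irs2*, an adaptor of the receptor, had a log2 ratio of -0.88, and *H19*, an imprinted noncoding RNA, had 563 and 314 CPM. These 2 were at least 1.5-fold higher at day 10, where 2.27% of all counted genes were. Of the 13 genes, 7 had a log2 ratio above 0 and 6 below, with a median of 0.08, and of 0.003 in thinned cells.

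*Col10a1*, the collagen of hypertrophic cartilage, was 93.4 CPM on day 10 and 299 CPM on day 14 in members (log2 ratio, 1.68; 95% CI, 1.62 to 1.74). *Spp1*, which encodes osteopontin, had 1712 and 3380 CPM (log2 ratio, 0.98), and *Mmp13*, the collagenase of late cartilage and bone, had 661 and 1068 CPM. The abundant sources of these RNAs lay outside the members. *Col10a1* stood at 2517 and 4259 CPM in *Col9a1*-rich cells and at 7046 and 10140 CPM in the other *Ptprc*-negative cells, and *Spp1* at 17740 and 27650 CPM in the latter. Without members that had over 20 UMIs per 10000 of *Col10a1* and *Spp1* together, the log2 ratio was 0.96 for *Col10a1* and 0.36 for *Spp1*. How much of this RNA came from free RNA or doublets was not tested.

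The other cartilage and bone genes mostly went the opposite way. Of 17 counted chondrocyte genes, 14 had a log2 ratio below 0, with a median of -0.41. That median was -0.12 without the members rich in *Acan*, *Cnmd*, *Col10a1*, and *Bglap*, which were 31.9% at day 10 and 23.5% at day 14, and -0.14 with no upper limit on genes per cell. It was -0.07 in the *Acta2* gate and -0.80 in the *Igf1* gate, both described further on. *Cnmd*, which encodes the cartilage angiogenesis inhibitor chondromodulin, had 385 and 211 CPM, and *Sox9*, the master regulator of cartilage, 304 and 212 CPM. *Matn4* and *Snorc*, a matrilin and a cartilage proteoglycan, were higher at day 14, at 388 and 619 CPM and 154 and 253 CPM. Of 12 counted osteoblast genes, 11 were below 0 and *Spp1* was the exception, with a median of -0.25, which was -0.55 without the members rich in those cartilage and bone genes and -0.01 in the *Acta2* gate. *Sp7*, the osteoblast regulator osterix, had 44.2 and 30.1 CPM.

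Neutrophil granule RNA gave the largest ratios and was unevenly spread. *S100a9*, which encodes a subunit of calprotectin, had 0.653 CPM on day 10 and 98.7 CPM on day 14 (log2 ratio, 7.24; 95% CI, 6.58 to 7.996), from 18 and 5469 UMIs. *S100a8*, the partner subunit, had 21 and 3916 UMIs, and *Camp*, which encodes cathelicidin, had 2.07 and 23.2 CPM. Of the 9385 UMIs of *S100a8* and *S100a9* in members at day 14, 85.8% lay in the 40 cells that had most, and 1 cell held 4175. A UMI of either gene was found in 1.65% of all members at day 10 and in 26.2% at day 14. In thinned cells *S100a9* was found in 7.37% of members and 7.24% of *Col9a1*-rich cells at day 14. The median log2 ratio of the 3 counted neutrophil genes was 6.54 in members, 0.91 in *Col9a1*-rich cells, and 4.96 in the other *Ptprc*-negative cells. The source of this RNA in members was not tested. The other *Ptprc*-negative cells had 7.86 and 396 CPM of *S100a9*. The summed level of the 10 neutrophil genes listed was 9.50 and 238 CPM in members, and none of the 10 was at 0 on either day.

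Without members that had a UMI of *S100a8* or *S100a9*, 10 genes were at least 2-fold higher at day 14 and 46 at day 10. For *Camp* the ratio on the log2 scale was then 0.59. Summed markers of other cells were low on both days: 12 macrophage and osteoclast genes had 36.5 and 46.2 CPM, 8 endothelial genes 8.41 and 9.40 CPM, 6 erythroid genes 3.95 and 1.497 CPM, 5 Schwann cell genes 37.2 and 27.9 CPM, and 8 skeletal muscle genes 5.87 and 4.64 CPM. The 7 pericyte genes had 247 and 271 CPM. Of the macrophage and osteoclast genes 3 and 2 were at 0, among them *Ptprc*, which the rule set to 0.

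Among the other genes at least 2-fold higher at day 14, *Cd59a*, which encodes a membrane inhibitor of complement, had 32.6 and 71.4 CPM and was found in 11.9% and 24.9% of thinned members. *Slpi*, a secreted inhibitor of neutrophil proteases, had 93.5 and 189 CPM, and *Ndufa4l2*, a mitochondrial gene induced in hypoxia, had 89.9 and 183 CPM. *Slpi* and *Ndufa4l2* were more abundant in *Col9a1*-rich cells, at 368 and 443 CPM and 356 and 502 CPM. *Scn7a*, a sodium channel gene, had 10.8 and 21.9 CPM. *Ccnb1ip1* and *Arhgdib* complete the 12, at 20.3 and 49.6 CPM and 11.7 and 23.5 CPM.

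Further genes between 1.5-fold and 2-fold higher at day 14 are given as examples. *Mfap5*, which encodes a microfibril glycoprotein of elastic fibers, had 250 and 440 CPM and was found in 37.3% and 55.7% of thinned members, against 2.75% and 5.27% of *Col9a1*-rich cells. *Spon1*, which encodes a secreted matrix protein, had 101 and 187 CPM, and *Svep1*, which encodes a large adhesion protein, had 41.5 and 80.2 CPM. *C1s1*, a protease of the complement cascade, had 46.4 and 89.8 CPM, and *Pltp*, the phospholipid transfer protein, had 64.5 and 123 CPM. The 8 counted complement and acute phase genes had a median log2 ratio of 0.35, and *C1s1* was the 1 at 1.5-fold. *Kcnj15*, a potassium channel gene, had 35.7 and 65.3 CPM, and *Bnip3*, a mitophagy gene induced in hypoxia, had 43.6 and 78.2 CPM.

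Thinning each member to 5000 UMIs, which left 1753 and 3639 cells, kept the direction of all 54 genes. Of the 12 genes higher at day 14, 9 stayed at least 2-fold, and of the 42 genes higher at day 10, 38 did. The largest shift of a log2 ratio was 0.38. *Slpi* was among the 3 that passed below 2-fold, with a log2 ratio of 0.98 in thinned cells.

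**Figure D4:**
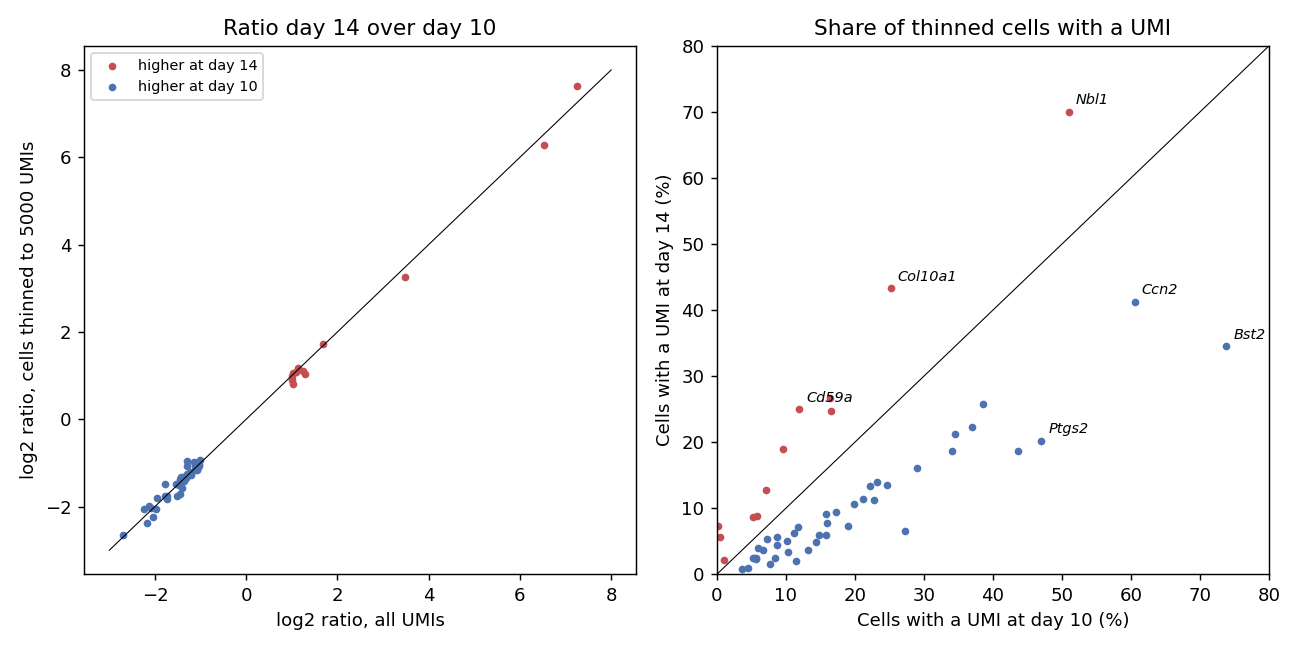
Left, log2 ratio of day 14 over day 10 in all UMIs (x axis) and in members thinned to 5000 UMIs (y axis) for the 12 genes higher at day 14 (red) and the 42 higher at day 10 (blue), with the line of equality. Right, share of thinned members with a UMI of the same genes at day 10 and day 14, in percent, where *Bst2* goes from 73.8% to 34.5% and *Nbl1* from 51.0% to 70.0%.

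The members were not uniform, and their makeup differed between the days. Members with at least 10 UMIs of *Acta2*, which encodes smooth muscle actin, per 10000 made up 24.9% (95% CI, 22.96% to 26.99%) at day 10 and 14.99% (95% CI, 13.9% to 16.1%) at day 14. Of the rest, those with at least 5 UMIs of *Igf1* per 10000 made up 37.1% (95% CI, 34.8% to 39.3%) and 47.2% (95% CI, 45.6% to 48.8%), and those in neither gate 38.0% and 37.8%. Members rich in *Acan*, *Cnmd*, *Col10a1*, and *Bglap*, with over 20 UMIs of them together per 10000, were 31.9% and 23.5%. The level of *Acta2* over all members was 834 and 539 CPM, and *Tagln*, another gene of contractile cells, had 534 and 495 CPM.

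Most of the differences were present within each of the 3 gates. All 12 genes higher at day 14 and 41 of the 42 higher at day 10 kept their direction in all 3, and 4 and 20 of them were at least 2-fold in all 3. The log2 ratio of *Bst2* was -1.49 in the *Acta2* gate, -1.64 in the *Igf1* gate, and -1.90 in neither, and that of *Ptgs2* was -2.04, -1.98, and -1.97. *Col10a1* was uneven, with a log2 ratio of 0.51 in the *Acta2* gate, 1.22 in the *Igf1* gate, and 2.42 in neither, where it had 89.2 and 478 CPM. *Ostn*, which encodes the secreted peptide osteocrin, had 51.4 and 6.86 CPM in neither gate and 14.2 and 11.8 CPM in the *Acta2* gate.

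**Figure D5:**
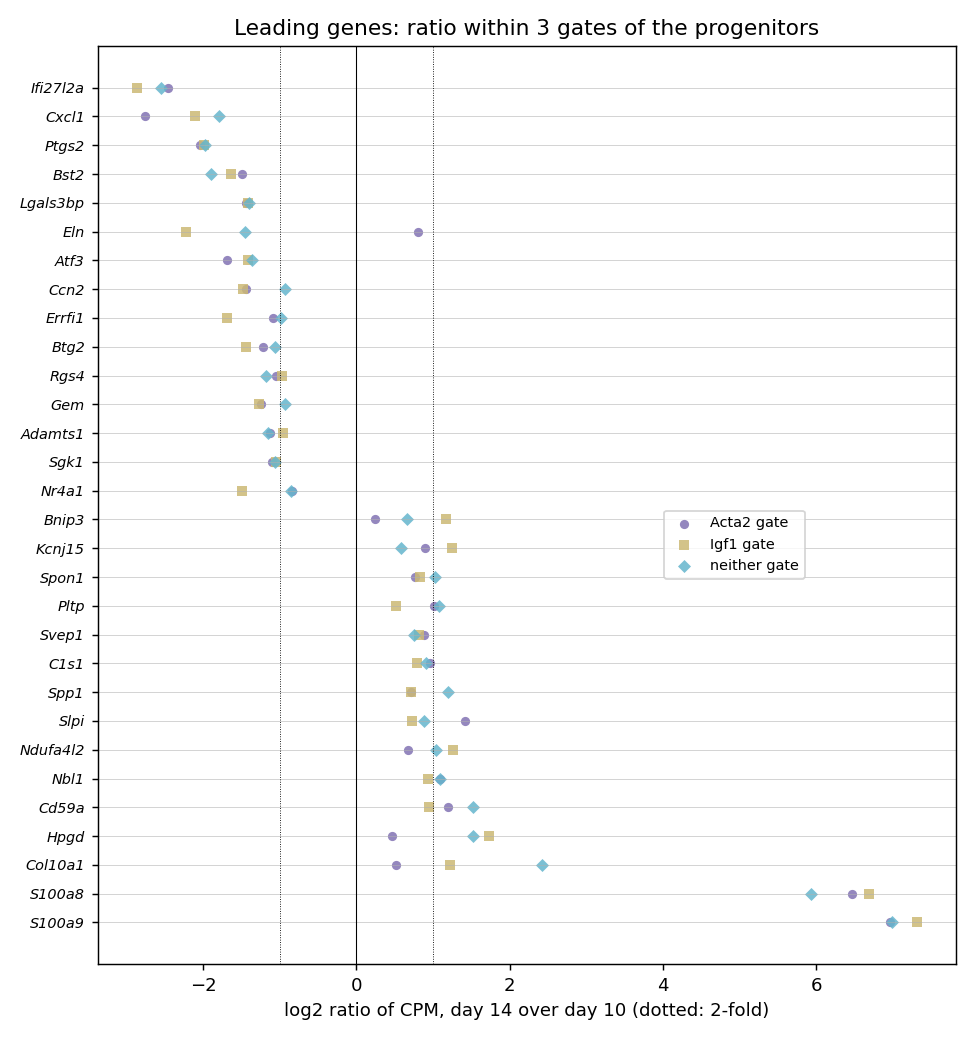
Log2 ratio of CPM, day 14 over day 10 (x axis), for the same 30 leading genes (y axis) within the *Acta2* gate, the *Igf1* gate, and neither gate of the fibroblastic progenitors. *Eln* is the gene whose points lie on both sides of 0, at 0.81 in the *Acta2* gate and -2.22 in the *Igf1* gate.

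*Eln*, which encodes elastin, the rubber-like core of elastic fibers, was the gene that changed direction. Over all members it had 62.8 CPM on day 10 and 22.8 CPM on day 14 (log2 ratio, -1.46; 95% CI, -1.57 to -1.36). In the *Acta2* gate it had 11.2 and 19.6 CPM (log2 ratio, 0.81; 95% CI, 0.43 to 1.19), in the *Igf1* gate 75.6 and 16.3 CPM, and in neither gate 89.5 and 32.6 CPM. It was found in 8.73% and 5.66% of thinned members, so its level rested on few cells.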

How the data were processed

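The authors sorted live callus cells negative for CD45, CD31, and TER119, prepared 1 droplet library a day, and deposited whole UMI counts per gene and barcode without normalization. Cell Ranger 3.0 and the build mm10 come from the submitters' processing notes; the sources used here give differing versions of Cell Ranger and of the library kit. UMIs were summed over the members of a library and scaled to CPM of all genes, and the ratio of day 14 to day 10 has an exact binomial interval (shares, Clopper-Pearson). No test was possible with 1 library a day, so a gene of at least 20 CPM on either day was called by a 2-fold ratio. No doublet caller was run. Leaving out the 10% of members with most UMIs was tried, but this need not remove doublets.

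Members and gene lists were chosen with earlier results of these data known. *Aspn*, *Col9a1*, and *Ptprc* chose the cells, and *Acta2* and *Igf1* the gates, and they are no finding there. Genes were named when they were among the 15 with the largest ratio in each direction at 50 CPM or more, when they were called members of a list or among its 4 most abundant, or when they marked progenitors or other cell types; further genes, from the called genes and from those of 1.5-fold, were chosen after their values were seen. Thinning drew 5000 UMIs a cell without replacement, leaving out shallower cells. Python 3.11.15, numpy 2.4.6, scipy 1.17.1, and pandas 2.3.3 were used. The procedures were tested on simulated data with independent counts for each gene. Such data cannot show how the intervals hold for genes whose UMIs lie in few cells. Other scales, filters, limits on cells, and gates were tried. Day 7 had too few members and was left out. Some genes are not reported here.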

Additional observations from a re-analysis of the deposited data

Results flagged for a closer look

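*Eln* had a log2 ratio of day 14 over day 10 of 0.81 in members of the *Acta2* gate and of -1.46 over all members, so the gate and the whole went opposite ways. The difference between them was not tested, since each day had 1 library.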

How the results depend on the processing

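No paired analysis was possible because each day had 1 library. With the ratio at 1.5-fold in place of 2-fold, 59 genes were higher at day 14 and 130 at day 10, and at 3-fold 4 and 12. Counting genes of 50 CPM left 18 higher at day 10, and counting every gene with 10 UMIs gave 714 higher at day 14 and 647 at day 10 of 16047, most of them of low level. Within gates, 28 genes were higher at day 14 in the *Acta2* gate, 20 at day 14 and 75 at day 10 in the *Igf1* gate, and 20 at day 14 in neither gate. The gates hold fewer cells, and the cause was not tested. Under the other alternatives, thinning, other scales, other limits on *Aspn* and mitochondrial UMIs, and members left out by depth, cell cycle, cartilage and bone RNA, *S100a8* and *S100a9*, *Col10a1* and *Spp1*, or shared barcodes, both counts stayed within 1.5 times the values reported. Of the 54 genes called at 2-fold, 1 changed sign under any of the 21 alternatives, *Eln* in the *Acta2* gate, at 0.81. The settings of 1.5-fold, 3-fold, 50 CPM, and 10 UMIs change only which genes are counted or called. They leave each ratio as it was and are no check of its sign. *S100a8* and *S100a9* had no ratio once the cells holding them were left out. Of the named genes that were not called, *Ogn*, *Ptn*, *Thbs2*, and *Bmp1* lay on both sides of 0 across the alternatives. No direction can be read from these. *Igf1* ranged from -0.04 to 0.59, but the alternatives include the *Igf1* gate and the neither gate, which its own level sets. Its ratios there are no check, so this range was not used to judge its direction. *Postn* stayed below 0, from -0.70 to -0.01. The alternatives on *S100a8* and *S100a9*, on *Col10a1* and *Spp1*, and on shared barcodes were chosen after seeing the data. No setting replaces a second library.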

Other observations

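Imprinted genes, which are expressed from 1 parental copy and many of which control growth, were not described above except for *H19*. Of 20 listed, 15 were counted in members, and none differed 2-fold. At least 1.5-fold higher at day 10 were 3, *H19*, *Peg3*, and *Zim1*, where 2.27% of all counted genes were. *Peg3* had 712 CPM on day 10 and 401 CPM on day 14 in members (log2 ratio, -0.83), and 2275 and 1351 CPM in *Col9a1*-rich cells. The median log2 ratio of the 15 was -0.14, and it was -0.67 in *Col9a1*-rich cells.

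*Bglap*, which encodes the bone matrix protein osteocalcin, had 82.2 and 79.2 CPM over all members. Within the *Acta2* gate, of 454 and 595 members, it had 24.3 and 223 CPM, and in the *Igf1* gate 49.95 and 14.04 CPM. These 2 gates thus had opposite ratios, and the level in neither gate is not given here. *Bglap* was found in 8.90% and 6.62% of thinned members and in 3.39% and 6.90% of *Col9a1*-rich cells. These values were noticed after they were seen, and the difference between the gates was not tested.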
